A study of Mus musculus with 6 samples.

Results

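Arc, Npas4, Homer1, Nptx2, Plk2 and Plk3 are genes that neurons switch on when they fire and whose products act at or on the synapse. They were chosen by symbol as activity-induced synaptic genes, with earlier results of these data known. Each of the 6 was found once among the 16060 rows of the deposited table. All 6 also passed the filter on low values, which left 13321 genes for testing. RNA came from the hippocampus of adult male C57BL/6 mice, with 3 libraries labelled Control and 3 labelled MA. Neither the labels nor the paper state whether a library holds RNA of 1 mouse. The MA mice received methamphetamine in escalating doses over 3 weeks, and the control mice received saline. The labels name no further allele or agent in either group. The open field and elevated plus maze tests followed the last week in both groups, and the mice were killed directly after them, so every library was taken after a behavioral test. The comparison asks which transcripts of the hippocampus differ between MA-treated and control mice.

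Synaptic activity opens NMDA receptors and voltage-gated calcium channels, and the calcium signal reaches the nucleus through CREB, SRF and MEF2. The genes that respond earliest fall into those that encode transcription factors and those whose products go straight to the synapse. In the hippocampus the latter group is known for its part in adjusting synaptic strength: Arc removes AMPA receptors from the membrane, the short Homer1a form loosens the scaffold around group I metabotropic glutamate receptors, Nptx2 clusters AMPA receptors from outside the cell, and Plk2 takes apart spine scaffolds during prolonged activity. Npas4 is the transcription factor among the 6 and controls the inhibitory synapses that a neuron receives.

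The values are on a log2 scale, read as log2 of a per-length, per-million value (RPKM by the table's name) plus 1, and a difference is the MA mean minus the Control mean on that scale. The libraries had been brought to nearly the same distribution before deposit. The table holds no read numbers, and the depth is therefore unknown. Every direction below rests on the group named in the column labels. The sources used here conflict on the direction of the difference for some genes named below, and the table holds nothing that settles it. No source states that the labels are wrong. Whether the labels were exchanged or a sign was reversed elsewhere was not tested. MA and Control therefore mean the libraries so labelled throughout, and if the labels were exchanged every difference would keep its size, error and p and change its sign. Across the tested genes, the mean Pearson correlation of a library with the others of its group was between 0.991 and 0.993 for Control and between 0.978 and 0.985 for MA, and the library labelled MA replicate 3 had the lowest value. Markers of hippocampal neurons were present in all libraries. The summed back-transformed level of 6 neuronal markers ranged from 2037 to 2204 in Control and from 1768 to 2334 in MA, so the groups overlapped. Of 3 CA1 pyramidal cell markers, all were lower on average in MA, as were 52.7% of tested genes. An unadjusted p under 0.05 (limma) was reached by 2 of them, where 5.46% of tested genes reached it and were lower. The CA1 sums overlapped, at 72.1 to 90.8 in Control and 66.2 to 74.5 in MA. Of 3 CA3 pyramidal cell markers, 2 were lower, and Grik4 was higher by 0.35 with each MA library above each Control library (limma adjusted p = 0.354). All 4 astrocyte markers were lower, 1 of them at such a p. Of 4 oligodendrocyte and 4 microglia markers, 3 each were lower, none at such a p. The sums of each of these lists overlapped between the groups. The 3 dentate granule cell markers were also lower on average and the 3 thalamic neuron markers higher, none at such a p. The thalamic sums overlapped, at 13.0 to 19.4 in Control and 32.2, 43.4 and 12.8 in MA replicates 1, 2 and 3. Markers of choroid plexus epithelium did not overlap. The sum of Ttr, Kl, Folr1 and Clic6 ranged from 63.0 to 416 in Control and from 1765 to 5058 in MA. All 4 were higher in every MA library, and 3 of the 4 passed the adjusted threshold. Of all tested genes, 7.32% had each MA library above each Control library, and 0.165% passed that threshold and were higher. Ttr, which made up most of the sum in every library, did not pass (limma adjusted p = 0.0887). The sum of 5 red blood cell genes ranged from 1599 to 2024 in Control and from 3319 to 4378 in MA, and 3 of the 5 passed. The sum of 3 endothelial markers ranged from 43.9 to 46.6 in Control and from 50.5 to 60.5 in MA, and none of the 3 passed. No marker of these lists was listed at 0 in any library. The choroid plexus, red blood cell and endothelial sums moved with the group, and so with every result below, and their part in those results was not tested. In bulk tissue, fewer cells of a type and less RNA per cell cannot be told apart.

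All 6 genes were lower on average in the MA libraries, as were 52.7% of tested genes. Their differences ran from -1.80 for Arc to -0.27 for Plk2 with a median of -0.70, beside a median of -0.010 for all genes tested. A log2 difference under -0.5 was found for Arc, Npas4, Homer1 and Nptx2 and for 1.15% of tested genes. With a pseudocount of 0.1 in place of 1, Plk3 was also under it, at -0.52, and the share over all genes was not computed there. Of the 6, 1 passed the adjusted threshold of 0.05 (limma with Benjamini-Hochberg adjustment over all tested genes), and this was Arc. Of all genes tested, 0.263% passed that threshold and 0.0976% passed it and were lower in MA. An unadjusted p-value under 0.05 was reached by all 6 genes, where 5.46% of tested genes reached it and were lower. For 5 of the 6, each MA library lay below each Control library, as it did for 10.2% of tested genes. Plk2 was the exception. Because the 6 were chosen with earlier results of these data known, these counts describe them and are not independent evidence of a difference.

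**Figure D1:**
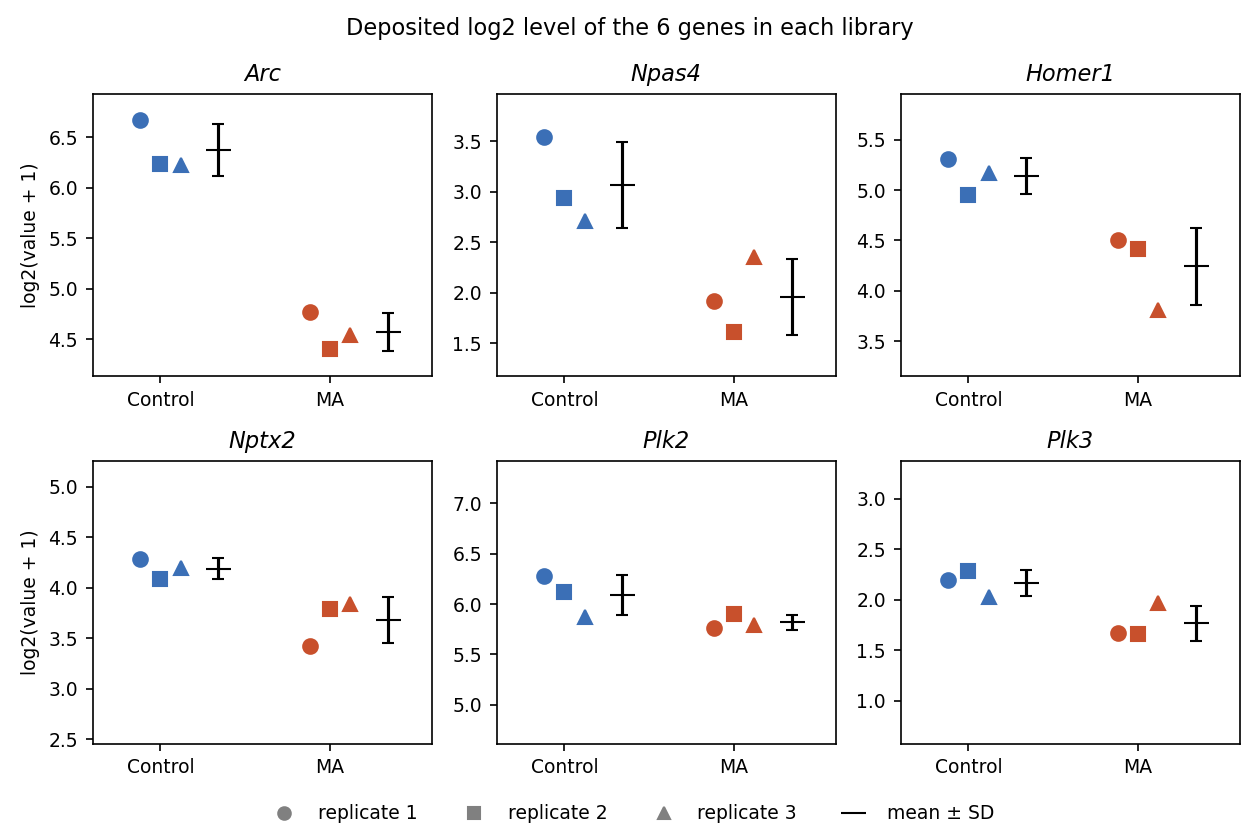
Deposited log2(value + 1) of the 6 genes in the 3 Control (blue) and 3 MA (orange) libraries, with marker shapes for replicate numbers and black bars for mean ± SD; every panel spans the same height on the log2 scale. Arc shows the widest gap between the groups, and in the Plk2 panel the highest MA library lies above the lowest Control library.

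The stretches upstream of the genes are shown because CREB, one of the factors that answers calcium entry, binds TGACGTCA or its shorter core TGACG. RefSeq promoter windows on GRCm38.p6 were found for Homer1, Npas4, Plk2 and Plk3, and the 250 bases before the start were searched on both strands for these motifs and for the CArG box bound by SRF. TGACG, which the longer motif contains on both strands, occurs in 17.8% of 32851 such windows of all genes, TGACGTCA in 1.55% and the CArG box in 1.47%. Capitals mark the matches, and each sequence reads 5′ to 3′ on the strand of its gene. The Npas4 stretch is limited to 30 bases around its matches.
Homer1, chr13:93303507-93303756, plus strand: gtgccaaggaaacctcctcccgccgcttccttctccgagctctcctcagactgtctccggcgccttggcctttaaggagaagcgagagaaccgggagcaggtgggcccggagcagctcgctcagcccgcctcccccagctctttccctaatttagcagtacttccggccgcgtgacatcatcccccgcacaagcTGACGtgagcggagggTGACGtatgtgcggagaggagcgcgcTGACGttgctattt
Plk2, chr13:110394794-110395043, plus strand: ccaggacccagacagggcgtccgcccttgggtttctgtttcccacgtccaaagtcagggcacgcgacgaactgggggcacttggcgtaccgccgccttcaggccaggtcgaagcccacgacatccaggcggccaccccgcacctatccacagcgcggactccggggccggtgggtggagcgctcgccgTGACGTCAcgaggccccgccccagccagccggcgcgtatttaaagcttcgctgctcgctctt
Plk3, chr4:117133964-117134213, minus strand: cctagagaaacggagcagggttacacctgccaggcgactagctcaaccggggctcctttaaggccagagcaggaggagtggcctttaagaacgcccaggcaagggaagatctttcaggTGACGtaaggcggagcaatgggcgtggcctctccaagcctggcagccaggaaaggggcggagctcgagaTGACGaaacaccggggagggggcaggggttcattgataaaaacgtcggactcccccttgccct
Npas4, chr19:4990125-4990154, minus strand: tcgaCGTCAcgggaTGACGtcggaagtctg

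In the Homer1 window TGACG occurs 3 times, starting 56, 40 and 14 bases before the transcript start, and the window of a further Homer1 start at chr13:93307784-93308033 holds none. The Plk2 window holds 1 full TGACGTCA, from 62 to 55 bases before the start. The Plk3 window holds TGACG at 132 and 63 bases before the start. The Npas4 window holds 2 TGACG cores on opposite strands, at 179 and 169 bases before the RefSeq start, within an exon of the GENCODE annotation. No CArG box was found in these windows. Arc and Nptx2 had no window and were not searched, and whether the motifs bear on the differences was not tested. A match is a description of the letters and says nothing about binding in these samples.

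Arc (ENSMUSG00000022602) encodes the capsid-like cytoskeletal protein that drives AMPA receptor endocytosis. It lies on the minus strand of chromosome 15 (GRCm38, 74669083 to 74672570), with 2 annotated transcripts over 3 exonic stretches and no overlapping gene. The log2 levels of Arc were 6.67, 6.23 and 6.22 in Control replicates 1, 2 and 3, and 4.77, 4.40 and 4.54 in MA replicates 1, 2 and 3. The lowest Control library was 1.45 above the highest MA library, and the replicates of each group lay within a range of less than that gap. Arc fell by 1.80 on the log2 scale (standard error 0.15, 95% interval -2.16 to -1.45, limma adjusted p = 0.0181), which was the lowest difference of all tested genes with the labels as deposited and would be the highest with the labels exchanged. Back-transformed, the level of Arc was 82.8 ± 15.4 (SD, n = 3) in Control and 22.9 ± 3.12 (SD, n = 3) in MA, or 27.6% of the Control mean. The two-sided exact permutation p was 0.1, which is as low as groups of 3 and 3 can give. The difference of Arc stayed between -1.90 and -1.66 when each library was left out in turn, and the adjusted p was above 0.05 without Control replicate 2 (0.0707), Control replicate 3 (0.0801) or MA replicate 2 (0.0804; limma, each).

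Npas4 (ENSMUSG00000045903) encodes a bHLH-PAS transcription factor whose gene responds to calcium entry and little to growth factors. It lies on the minus strand of chromosome 19 (GRCm38, 4984355 to 4990316), with 3 annotated transcripts. Npas4 had log2 levels of 3.54, 2.94 and 2.71 in Control replicates 1, 2 and 3, and 1.92, 1.61 and 2.35 in MA replicates 1, 2 and 3. Its groups did not overlap, but both were spread widely, and MA replicate 3 came within 0.36 of Control replicate 3. The log2 difference of Npas4 was -1.11 (standard error 0.26, 95% interval -1.70 to -0.51, limma adjusted p = 0.217). Back-transformed, its level was 7.62 ± 2.66 (SD, n = 3) in Control and 2.97 ± 1.04 (SD, n = 3) in MA, or 39.0% of the Control mean. At such a low level the offset of 1 compresses the difference, and with a pseudocount of 0.1 in its place it was -1.33 (limma adjusted p = 0.216).

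Homer1 (ENSMUSG00000007617) encodes a scaffold that joins group I metabotropic glutamate receptors to Shank proteins and calcium stores. It spans the plus strand of chromosome 13 (GRCm38, 93299635 to 93405129), with 12 annotated transcripts over 15 exonic stretches. The table gives 1 value per gene, so the activity-induced short form and the constitutive long forms cannot be told apart. Homer1 stood at log2 levels of 5.30, 4.95 and 5.17 in Control replicates 1, 2 and 3, and 4.50, 4.42 and 3.81 in MA replicates 1, 2 and 3. MA replicate 3 was the lowest, and the groups were 0.45 apart at their nearest libraries. The log2 difference of Homer1 was -0.90 (standard error 0.19, 95% interval -1.34 to -0.45, limma adjusted p = 0.183). Without MA replicate 3 it was smaller in size, at -0.68, and passed the threshold (limma adjusted p = 0.0423). The back-transformed level of Homer1 was 34.4 ± 4.31 (SD, n = 3) in Control and 18.4 ± 4.66 (SD, n = 3) in MA, or 53.3% of the Control mean.

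Nptx2 (ENSMUSG00000059991), also called Narp, encodes a secreted pentraxin that gathers AMPA receptors on interneurons. It lies on the plus strand of chromosome 5 (GRCm38, 144545902 to 144557478), with 1 annotated transcript in 5 exonic stretches. The log2 levels of Nptx2 were 4.29, 4.08 and 4.19 in Control replicates 1, 2 and 3, and 3.42, 3.79 and 3.84 in MA replicates 1, 2 and 3. The Control libraries were close together, and MA replicate 1 was the lowest of the MA libraries. The log2 difference of Nptx2 was -0.51 (standard error 0.13, 95% interval -0.81 to -0.20, limma adjusted p = 0.252). Back-transformed, Nptx2 stood at 17.3 ± 1.29 (SD, n = 3) in Control and 11.9 ± 1.94 (SD, n = 3) in MA, or 69.2% of the Control mean.

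Plk2 and Plk3 encode polo-like kinases that neurons induce with activity, and Plk2 phosphorylates the spine protein SPAR (Sipa1l1) and so marks it for degradation. Plk2 (ENSMUSG00000021701) lies on the plus strand of chromosome 13 (GRCm38, 110395046 to 110400844). The log2 levels of Plk2 were 6.27, 6.12 and 5.88 in Control replicates 1, 2 and 3, and 5.76, 5.90 and 5.80 in MA replicates 1, 2 and 3. Control replicate 3 lay below MA replicate 2, so the groups overlapped. The log2 difference of Plk2 was -0.27 (standard error 0.11, 95% interval -0.53 to -0.0051, limma adjusted p = 0.471), with a two-sided exact permutation p of 0.2. It was -0.18 without Control replicate 1 and -0.37 without Control replicate 3. The back-transformed level of Plk2 was 67.5 ± 9.35 (SD, n = 3) in Control and 55.5 ± 2.94 (SD, n = 3) in MA, or 82.3% of the Control mean.

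Plk3 (ENSMUSG00000028680) lies on the minus strand of chromosome 4 (GRCm38, 117128655 to 117133963), and 84 exonic bases at its 3′ end are shared with Tctex1d4 on the other strand. Strand use in counting is not stated, so reads there are uncertain. For Plk3 the log2 levels were 2.19, 2.29 and 2.03 in Control replicates 1, 2 and 3, and 1.67, 1.66 and 1.96 in MA replicates 1, 2 and 3. The groups were separated by 0.065, between Control replicate 3 and MA replicate 3. The log2 difference of Plk3 was -0.40 (standard error 0.13, 95% interval -0.70 to -0.10, limma adjusted p = 0.350). As for Npas4, the offset of 1 compresses this difference, and with a pseudocount of 0.1 it was -0.52 (limma adjusted p = 0.349). Its back-transformed level was 3.51 ± 0.402 (SD, n = 3) in Control and 2.42 ± 0.417 (SD, n = 3) in MA, or 69.0% of the Control mean.

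Because the values are per length by the table's name, the levels of the 6 genes can be set in order. In Control, Arc (mean log2 level 6.37) and Plk2 (6.09) stood highest and their ranges overlapped, and Homer1 (5.14), Nptx2 (4.19), Npas4 (3.06) and Plk3 (2.17) followed with no overlap between neighbours. In MA, Plk2 (5.82) stood alone at the top. The ranges of Arc (4.57) and Homer1 (4.24) overlapped there, as did those of Homer1 and Nptx2 (3.68) and those of Npas4 (1.96) and Plk3 (1.77). Arc thus lay above Plk2 in each Control library and below it in each MA library. The log2 level of Arc minus that of Plk2 was 0.39, 0.12 and 0.34 in Control replicates 1, 2 and 3 and -0.99, -1.51 and -1.25 in MA replicates 1, 2 and 3.

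The sizes of the differences were compared between genes. The within-library differences between log2 levels of 13 pairs were compared between the groups with exact permutation tests (smallest two-sided p 0.1, Benjamini-Hochberg adjusted over the pairs). Arc against Npas4, Homer1, Nptx2, Plk2 and Plk3 gave MA minus Control differences of -0.70, -0.91, -1.30, -1.54 and -1.40, and in all 5 pairs each MA library lay below each Control library (exact permutation p = 0.1, adjusted p = 0.144, for each). These 5 pairs share the Arc values, and Arc had the lowest difference of all tested genes. They are therefore not 5 separate results. With 3 libraries per group no pair could reach 0.05. The offset of 1 compresses the differences of low genes such as Npas4 and Plk3 more than that of Arc. With a pseudocount of 0.1 in its place the 5 values were -0.51, -0.91, -1.31, -1.57 and -1.32, in the same order.

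The libraries of a group did not keep 1 order across the genes. Control replicate 1 was the highest Control library for Arc, Npas4, Homer1, Nptx2 and Plk2, by 0.48 above the group mean for Npas4 and by 0.29 for Arc, and for Plk3 it was second to Control replicate 2. Among the MA libraries, replicate 3 was 0.39 above the group mean for Npas4, 0.20 above it for Plk3 and 0.16 above it for Nptx2, while it was 0.43 below it for Homer1 and 0.027 below it for Arc. Leaving out Control replicate 1 moved the difference of Npas4 to -0.87, and leaving out MA replicate 3 moved it to -1.30 (limma adjusted p = 0.606 and 0.0553).

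**Figure D2:**
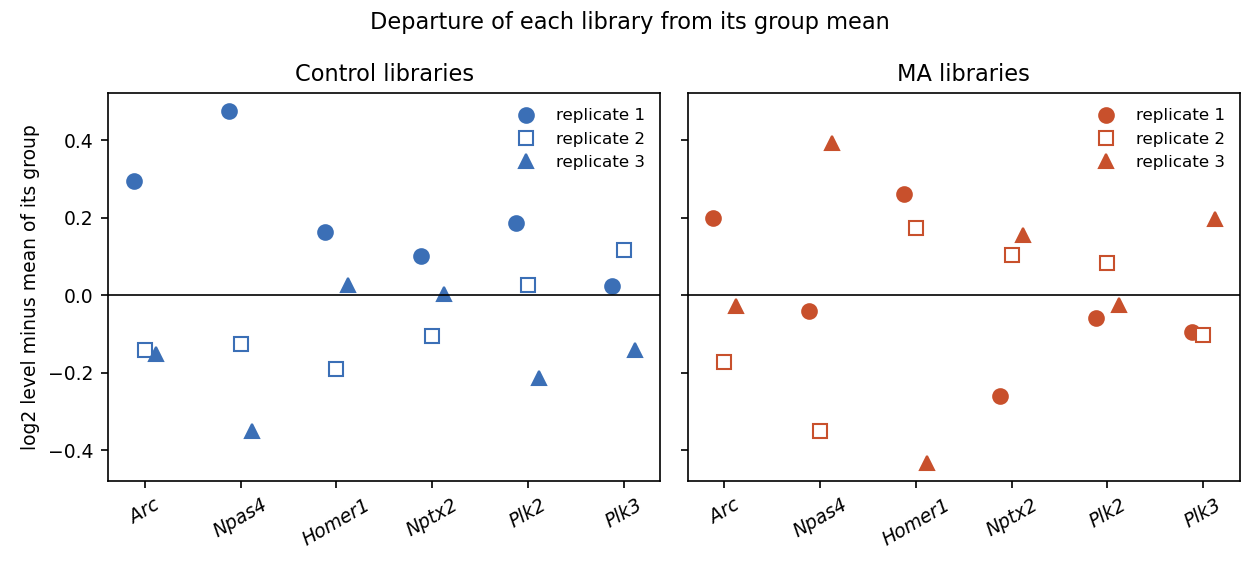
Log2 level of each gene in each library minus the mean of its own group, for Control (left) and MA (right), with 1 marker shape per replicate number. Control replicate 1 lies above its group mean for all 6 genes, whereas MA replicate 3 lies 0.39 above it for Npas4 and 0.43 below it for Homer1.

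Relatives from the same families served for comparison. Homer2 and Homer3, the other members of the scaffold family, had log2 differences of -0.021 and 0.067 (limma adjusted p = 0.979 and 0.900). The log2 level of Homer1 minus that of Homer2 was 2.24, 2.05 and 2.16 in Control replicates 1, 2 and 3, and 1.36, 1.24 and 1.22 in MA replicates 1, 2 and 3. This within-library difference was the steadiest across MA libraries of all 13 pairs, with an SD of 0.079, and MA replicate 3 was the lowest MA library for both genes. It was lower in MA by 0.88, and Homer1 minus Homer3 was lower by 0.96, with no overlap between the groups in either (exact permutation p = 0.1, adjusted p = 0.144, for each).

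For the pentraxins, overlap differed with the relative taken. Nptx1, a secreted pentraxin, had a log2 difference of -0.18 (limma adjusted p = 0.681), and Nptxr, the membrane-bound pentraxin receptor, one of 0.21 (limma adjusted p = 0.598). Nptx2 minus Nptxr was -3.08, -3.25 and -3.17 in Control and -4.18, -3.99 and -3.48 in MA replicates 1, 2 and 3, with no overlap (exact permutation p = 0.1, adjusted p = 0.144). Nptx2 minus Nptx1 overlapped, at -2.72, -2.64 and -2.66 in Control and -3.21, -3.12 and -2.65 in MA (exact permutation p = 0.3, adjusted p = 0.355).

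Among the other polo-like kinases, Plk1 and Plk4, which serve cell division and centriole copying, and Plk5, a kinase-deficient member found in brain, had log2 differences of -0.25, -0.12 and -0.16 (limma adjusted p = 0.641, 0.872 and 0.871). Plk2 minus Plk5 and Plk3 minus Plk5 differed between the groups by -0.11 and -0.25 with overlap (exact permutation p = 0.9 and 0.5, adjusted p = 0.900 and 0.542). MA replicate 3 had the highest Plk5 level of all libraries, at 4.14, and without it the Plk2 minus Plk5 difference turned to 0.17 and the Plk3 minus Plk5 difference was -0.070. Without Control replicate 2 the latter was -0.13. Arnt2, the partner with which Npas4 binds DNA in neurons, had a log2 difference of 0.22 (limma adjusted p = 0.744). Npas4 minus Arnt2 was lower in MA by 1.33 but overlapped (exact permutation p = 0.2, adjusted p = 0.260). For Gria1, an AMPA receptor subunit that Arc removes from synapses, the log2 difference was -0.050 (limma adjusted p = 0.921), and Arc minus Gria1 was lower in MA by 1.75 with no overlap (exact permutation p = 0.1, adjusted p = 0.144). In all, 9 of the 13 pairs did not overlap, and the members of the pairs had been chosen with earlier results of these data known. All of the 9 except Nptx2 minus Nptxr hold Arc or Homer1, so the count is not one of separate results. The share without overlap among other pairs of genes was not computed.

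**Figure D3:**
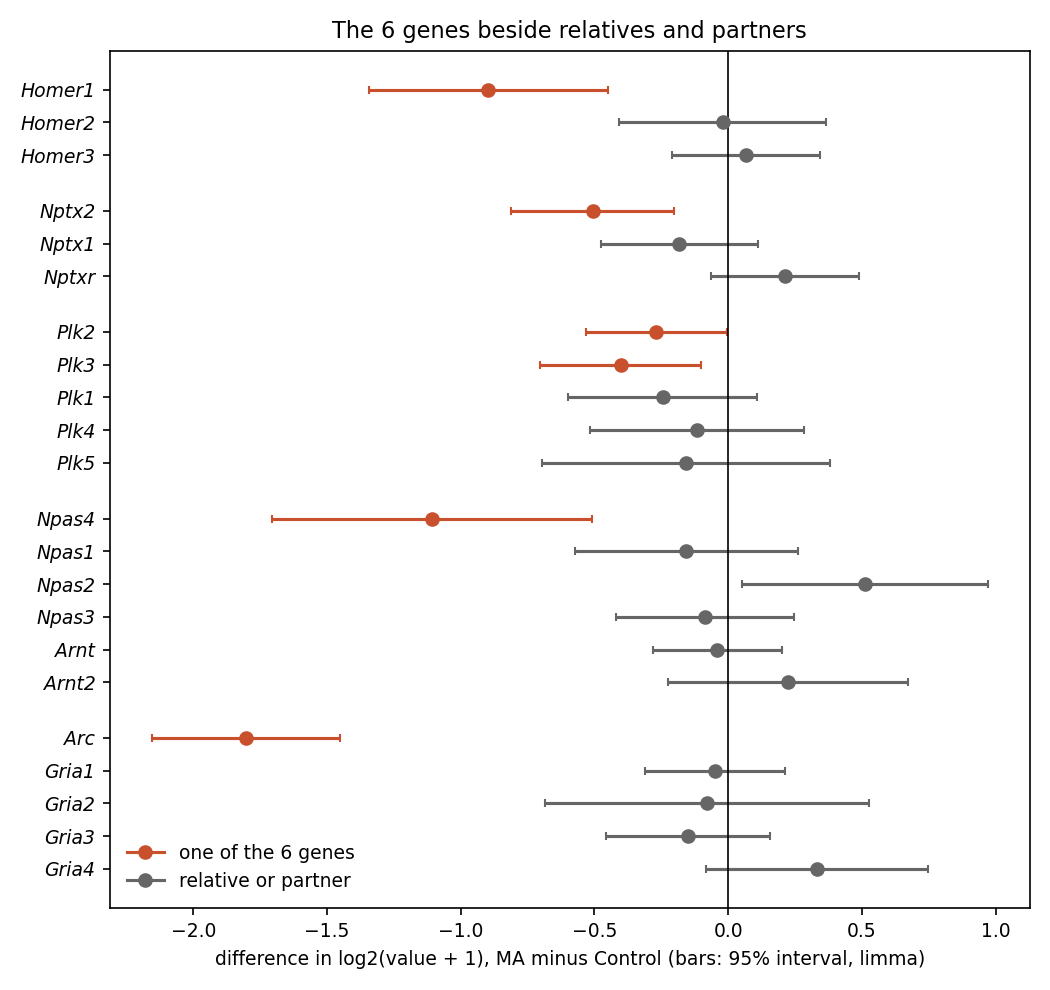
Difference in log2(value + 1), MA minus Control, with 95% intervals from limma, for the 6 genes (orange) and for relatives and partners (grey) grouped by family. Homer1 at -0.90 lies apart from Homer2 at -0.021 and Homer3 at 0.067, while the intervals of Plk2 and Plk3 overlap those of Plk1, Plk4 and Plk5.

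The wider pathway was described with 7 lists of 90 genes in all, of which all were in the table and tested (Ccn1, Mrtfa and Mrtfb under older symbols). Of the 10 Homer and pentraxin relatives and receptors, none passed the adjusted threshold (limma), 2 reached an unadjusted p under 0.05, both higher in MA, with each MA library above each Control library, and the median difference was 0.068. Of all tested genes, 4.99% reached such a p and were higher, and 7.32% had each MA library above each Control library. The 2 genes were Shank1 and Shank3, postsynaptic scaffolds that bind Homer, with log2 differences of 0.63 and 0.47 (limma adjusted p = 0.360 and 0.401). Their groups nearly touched, with gaps of only 0.0024 and 0.0040 between MA replicate 3 and Control replicate 3. Of the 12 AMPA receptor subunits and Arc partners, none passed either threshold, 10 were lower, beside 52.7% of all tested genes, and the median was -0.073. This median ranged from -0.12 without MA replicate 2 to -0.022 without MA replicate 1, and was -0.031 without Control replicate 1 and -0.023 without MA replicate 3. Gria4, an AMPA receptor subunit, had a log2 difference of 0.33 (limma adjusted p = 0.582).

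Of the 5 Npas4 partners and NPAS relatives, none passed the adjusted threshold and 1 reached an unadjusted p under 0.05. This was Npas2, a relative of the Clock protein, with a log2 difference of 0.51 (limma adjusted p = 0.437). Of all tested genes, 4.99% reached such an unadjusted p and were higher. Of the 7 other polo-like kinases and Plk2 substrates, none reached either threshold and the median was -0.053. The substrate Sipa1l1 had a log2 difference of 0.00032 (limma adjusted p = 0.999).

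Activity-induced genes were split by product. Of 18 activity-induced transcription factors, 17 were lower in MA, with a median difference of -0.84. Each MA library lay below each Control library for 13, 13 reached an unadjusted p under 0.05 and 5 passed the adjusted threshold. Of all tested genes, 52.7% were lower and 10.2% had each MA library below each Control library. An unadjusted p under 0.05 with a lower MA level was found for 5.46%, and an adjusted one for 0.0976%. With the labels as deposited, Egr1, Fosb, Nr4a1, Fos and Junb fell by 1.46, 1.32, 1.45, 1.61 and 1.26 on the log2 scale (limma adjusted p = 0.0181, 0.0244, 0.0244, 0.0315 and 0.0456). Junb overlaps Prdx2 on the other strand and is uncertain. The 5 calls became 0 without Control replicate 2, Control replicate 3 or MA replicate 2, 1 without Control replicate 1, and 9 without MA replicate 3, counted over all lists. Egr2 and Egr4 had log2 differences of -1.42 and -1.36 (limma adjusted p = 0.0570 and 0.0628). Several of these genes were also picked by the study from the same libraries, so the list is not independent evidence of a difference. The doubt about the direction stated above applies to it.

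Of 19 further activity-induced genes that encode effectors rather than transcription factors, 15 were lower and none passed the adjusted threshold. For 5, each MA library lay below each Control library, and 2 reached an unadjusted p under 0.05. The shares over all tested genes were 52.7% lower, 10.2% with each MA library below, and 5.46% with such a p and lower. The median difference of the 19 was -0.19, and it was -0.096 without MA replicate 3. Ccn1, a secreted matrix protein, and Bdnf, the neurotrophin that Npas4 helps to induce, had log2 differences of -0.56 and -0.36 (limma adjusted p = 0.329 and 0.354). Of 19 genes that carry the activity signal to the nucleus, none passed the adjusted threshold and the median was -0.057. An unadjusted p under 0.05 was reached by 4, all lower in MA, as it was by 5.46% of all tested genes. Creb1 and Srf, which bind the promoters of many early genes, had log2 differences of -0.44 and -0.27 (limma adjusted p = 0.323 and 0.350).

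**Figure D4:**
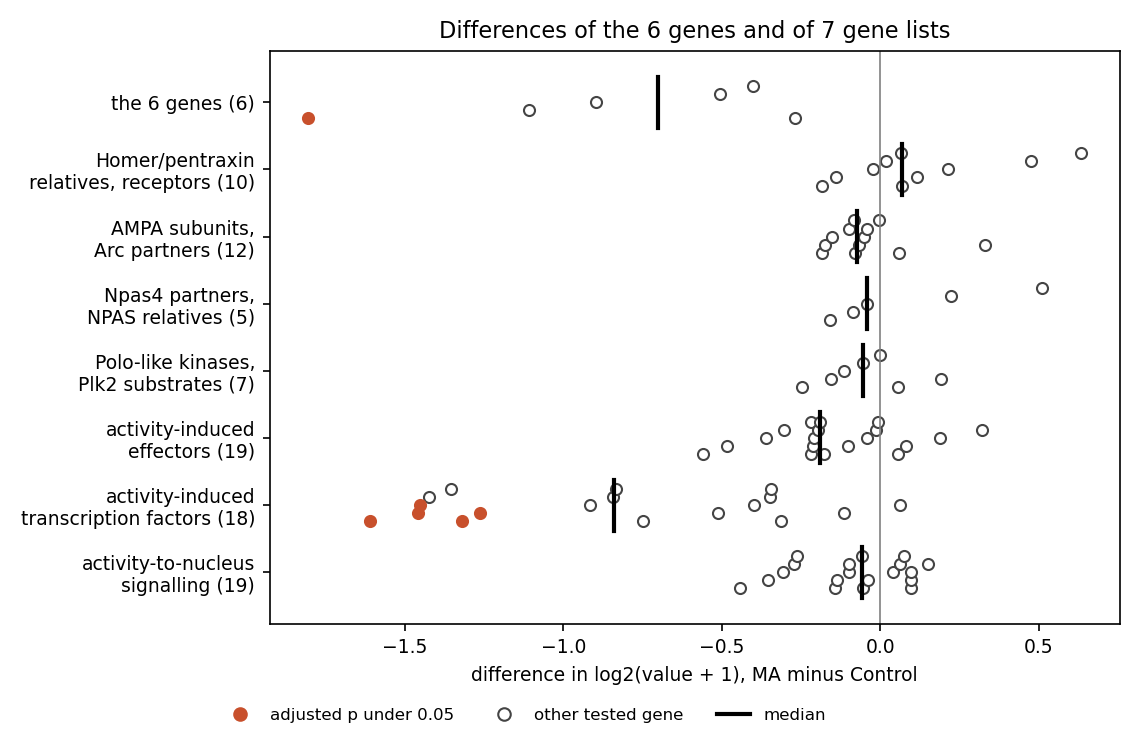
Difference in log2(value + 1), MA minus Control, of each tested gene (points) among the 6 genes and in the 7 lists, with gene numbers in brackets, black lines for medians and filled orange points for an adjusted p under 0.05 (limma). The 6 genes have a median of -0.70, beside -0.84 for the activity-induced transcription factors and -0.19 for the other effectors.

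The genes whose profile over the 6 libraries was most like that of Arc were Fos, Nr4a1, Egr1, Egr2 and Fosb, in this order. Likeness was the root mean square difference between log2 profiles, each centred on its own mean, and it was 0.12 for Fos, 0.19 for Nr4a1 and Egr1, 0.25 for Egr2 and 0.28 for Fosb. Fos had log2 levels of 4.30, 3.78 and 3.89 in Control replicates 1, 2 and 3, and 2.69, 2.22 and 2.22 in MA replicates 1, 2 and 3, with replicate 1 the highest of each group as for Arc. For Npas4 they were Junb, Egr4, Arl5b, Akr1c18 and Bfsp2, with values from 0.16 to 0.22. In all 5, as for Npas4, Control replicate 1 was the highest Control library and MA replicate 3 the highest MA library. All values come from the same 6 libraries and the measure uses the group difference itself, so no test is given.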

How the data were processed

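Hippocampal RNA was sequenced in 6 libraries. Per the paper's methods, Hisat2 served for alignment of read pairs, featureCounts for counting and FPKM as the measure, whereas the submitters' processing notes name Bowtie 0.12.2 and the builds mm8 and mm9. The authors deposited 1 table named as RPKM, whose values lie on a log2 scale (read from the values, with an offset of 1 inferred from the lowest value of 0) and share 1 highest value in all libraries. Neither the log step nor the normalization is described. Each of the 6 columns was matched to a sample by name.

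Tested were genes that reached 0.5 after back-transformation in 3 or more libraries, with limma 3.58.1 in R 4.3.3 (eBayes with trend, no covariate, Benjamini-Hochberg adjustment). Single values and within-library differences were tested with exact two-sided permutations. Named were the 6 genes, the genes of the 13 pairs, the called genes and the 2 others with the smallest p of each list, and the 5 profiles nearest to Arc and to Npas4. Some genes that this rule names are not reported here. Plk4 and Sipa1l1 were named after their values were seen. The members, lists and pairs were chosen with earlier results of these data known. Coordinates are from GENCODE M21 on GRCm38 and promoters from RefSeq on GRCm38.p6, for location only.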

Additional observations from a re-analysis of the deposited data

How the results depend on the processing

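Each of the 6 differences kept its sign under every alternative run, none of which exchanged the labels. The adjusted p ranged from 0.00322 to 0.0804 for Arc, from 0.0231 to 0.606 for Npas4, from 0.0292 to 0.632 for Homer1, from 0.0538 to 0.719 for Nptx2, from 0.192 to 0.902 for Plk2 and from 0.0382 to 0.790 for Plk3 (limma). With sample quality weights, 4 of the 6 genes passed, with differences of -1.30 for Npas4, -0.70 for Homer1 and -0.50 for Plk3 beside Arc, and 586 of all genes and 14 list genes passed, 11 of these in the transcription factor list and 3 in the Homer and pentraxin list. The calls among all tested genes, 35 in the reported test, were 3 with no filter, 20 with a minimum mean of 5 (which left Plk3 out) and 15 with the replicate block. The calls among list genes, 5 in the reported test, were 1, 3 and 3. Leaving out 1 library at a time gave 0 to 257 calls among all genes, 0 to 9 among list genes and 0 to 2 among the 6 genes, with differences from -1.90 to -1.66 for Arc and from -1.03 to -0.68 for Homer1. Same-numbered libraries were treated as unpaired, because neither the labels nor the paper state a pairing. Their deviations from the group means correlated at -0.197, -0.242 and -0.337. With 3 libraries per group such deviations sum to 0, so these values cannot show whether the libraries were paired. Under the replicate block the adjusted p was 0.0227 for Arc and at least 0.330 for the other 5 (limma). The median of the NPAS list turned to 0.092 and that of the polo-like list to 0.00032 at a minimum mean of 5, and that of the signalling list to 0.018 with quality weights. Without 1 library, the NPAS median ranged from -0.059 to 0.028, with 0.018 without MA replicate 1, that of the Homer and pentraxin list from -0.040 to 0.27, that of the polo-like list from -0.086 to -0.0050, that of the signalling list from -0.13 to -0.0031, and the Plk2 minus Plk5 difference from -0.28 to 0.17. The cause of these shifts was not tested. Read depth is unknown, and precision rests on 3 libraries per group.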
